A study of Mus musculus with 36 samples.

Results

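The MAP kinase phosphatases described here are 9 genes, Dusp1, Dusp2, Dusp4, Dusp5, Dusp6, Dusp7, Dusp8, Dusp10 and Dusp16, taken by symbol from the 37315 genes of the deposited count table. Their levels were followed in polyA RNA of 4 brain regions. CA1 and CA3 are fields of the hippocampus, and LEC and MEC are the lateral and the medial entorhinal cortex, through which most cortical input reaches it. The mice were wild type, of the strain given as BL-6, housed one to a cage and accustomed to the experimenter for 3 minutes a day over 5 days. Each region has 3 libraries per condition. The conditions are home cage, exposure to a context, and foot shock, which the sample names call fear. Tissue was collected 90 minutes after the behaviour, giving 12 groups of 3 and 36 libraries. The labels name no transgene, drug or other allele, and they do not say which mouse gave which library. P-values therefore measure the spread between these libraries.

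MAP kinase phosphatases switch off MAP kinases by removing phosphate from both the threonine and the tyrosine of the activation loop. The nuclear enzymes encoded by Dusp1, Dusp2, Dusp4 and Dusp5 are classically products of inducible genes, the cytoplasmic enzymes encoded by Dusp6 and Dusp7 prefer the kinase ERK, and those encoded by Dusp8, Dusp10 and Dusp16 act mainly on the stress kinases JNK and p38. In neurons, synaptic activity drives ERK signalling, which turns on immediate early genes and, among its targets, phosphatases that act back on ERK.

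Promoter sequence of 4 of the genes is shown because they cover a spread of responses described further on: Dusp5 and Dusp6 differed from home cage in MEC, Dusp8 did so only as an average over regions, and Dusp1 passed no test between conditions. The sequences are the 250 bases before the transcription start in RefSeq, build GRCm38.p6, read 5′ to 3′ on the gene's strand. They lie at chr17:26508473-26508722 on the minus strand for Dusp1, chr7:142095285-142095534 on the minus strand for Dusp8, chr19:53528895-53529144 on the plus strand for Dusp5 and chr10:99262981-99263230 on the plus strand for Dusp6. Capitals mark matches to the searched motifs.
Dusp1: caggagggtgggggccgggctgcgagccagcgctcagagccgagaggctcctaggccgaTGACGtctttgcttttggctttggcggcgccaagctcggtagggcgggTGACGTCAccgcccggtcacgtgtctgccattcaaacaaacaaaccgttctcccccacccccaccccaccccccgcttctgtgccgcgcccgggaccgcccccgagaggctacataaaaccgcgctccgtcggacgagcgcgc
Dusp8: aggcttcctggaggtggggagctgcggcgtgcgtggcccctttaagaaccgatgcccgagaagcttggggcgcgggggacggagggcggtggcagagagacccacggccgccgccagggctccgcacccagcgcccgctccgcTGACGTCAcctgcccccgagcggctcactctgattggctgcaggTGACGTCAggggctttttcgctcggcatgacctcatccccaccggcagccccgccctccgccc
Dusp5: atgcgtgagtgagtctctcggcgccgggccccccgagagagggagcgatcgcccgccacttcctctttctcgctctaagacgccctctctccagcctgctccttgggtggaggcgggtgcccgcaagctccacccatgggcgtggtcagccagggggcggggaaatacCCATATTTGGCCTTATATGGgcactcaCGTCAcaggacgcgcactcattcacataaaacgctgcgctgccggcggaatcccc
Dusp6: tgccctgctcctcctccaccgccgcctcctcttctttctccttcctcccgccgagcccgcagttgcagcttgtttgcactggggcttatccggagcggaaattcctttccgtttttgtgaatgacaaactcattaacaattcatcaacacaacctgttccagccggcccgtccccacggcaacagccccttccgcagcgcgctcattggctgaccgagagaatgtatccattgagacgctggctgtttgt

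Of the 9 genes, 8 had a promoter window in the RefSeq table, and Dusp4 had none. The motifs were searched on both strands: the cAMP response element (CRE) palindrome TGACGTCA, its 5-base core TGACG, which lies inside the palindrome, the AP-1 site TGANTCA, the EGR site GCGTGGGCG and the CArG box of the serum response factor. Dusp1 held 1 CRE palindrome, 143 to 136 bases upstream of the start, and a separate CRE core 191 to 187 bases upstream. Dusp8 held 2 palindromes, at 107 to 100 and 63 to 56 bases upstream. Palindromes were present in 1.55% of the 32851 windows of this length in the table. Dusp5 held 2 adjoining CArG boxes, CCATATTTGG at 82 to 73 bases upstream and CCTTATATGG at 72 to 63, followed by a CRE core at 55 to 51. CArG boxes occurred in 1.47% of windows and CRE cores in 17.8%. Dusp16 had 1 CRE core. The windows of Dusp2, Dusp6, Dusp7 and Dusp10 held none of the 5 motifs. No window of the 8 held an AP-1 or EGR site, which occurred in 6.75% and 0.536% of all windows. These matches describe the letters only.

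The libraries held 21871412 to 68974340 counts (median 28098008). Levels are given as CPM, counts scaled to the library total, and each of the 9 genes passed the filter on low counts in every region. Dusp2 had 1 to 62 counts per library, and the other genes had at least 57 in each. Summed CA3 pyramidal cell markers were 521 to 711 CPM in CA3 and 117 to 257 CPM in CA1, and CA1 pyramidal markers were 570 to 1620 CPM in CA1 and 132 to 427 CPM in CA3. Markers of dentate granule cells, which lie next to these fields, were also present. In CA1 they summed to 367 to 756 CPM in home cage, 187 to 559 in context and 493 to 652 in fear, and in CA3 to 74.3 to 343 CPM. Where 14.6% of all genes were called lower in CA3 than in CA1, 8 of 8 of these markers were. With them as a covariate 0 of the 9 genes were called in CA1 or CA3. The count was 0 already without it, and in CA1 0 of 16163 genes were called against home cage. It therefore cannot show the part of these markers. The Dusp6 context change in CA1 fell with this covariate, as given further on. Context 2 and home cage 2 stood at opposite ends of the first principal component in both CA1 and CA3. Named results of the 9 genes in CA1, CA3 and the averages that move without them are therefore also given that way. The regions are mixtures of cells, and fewer cells of a type cannot be told apart from less RNA per cell.

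**Figure D1:**
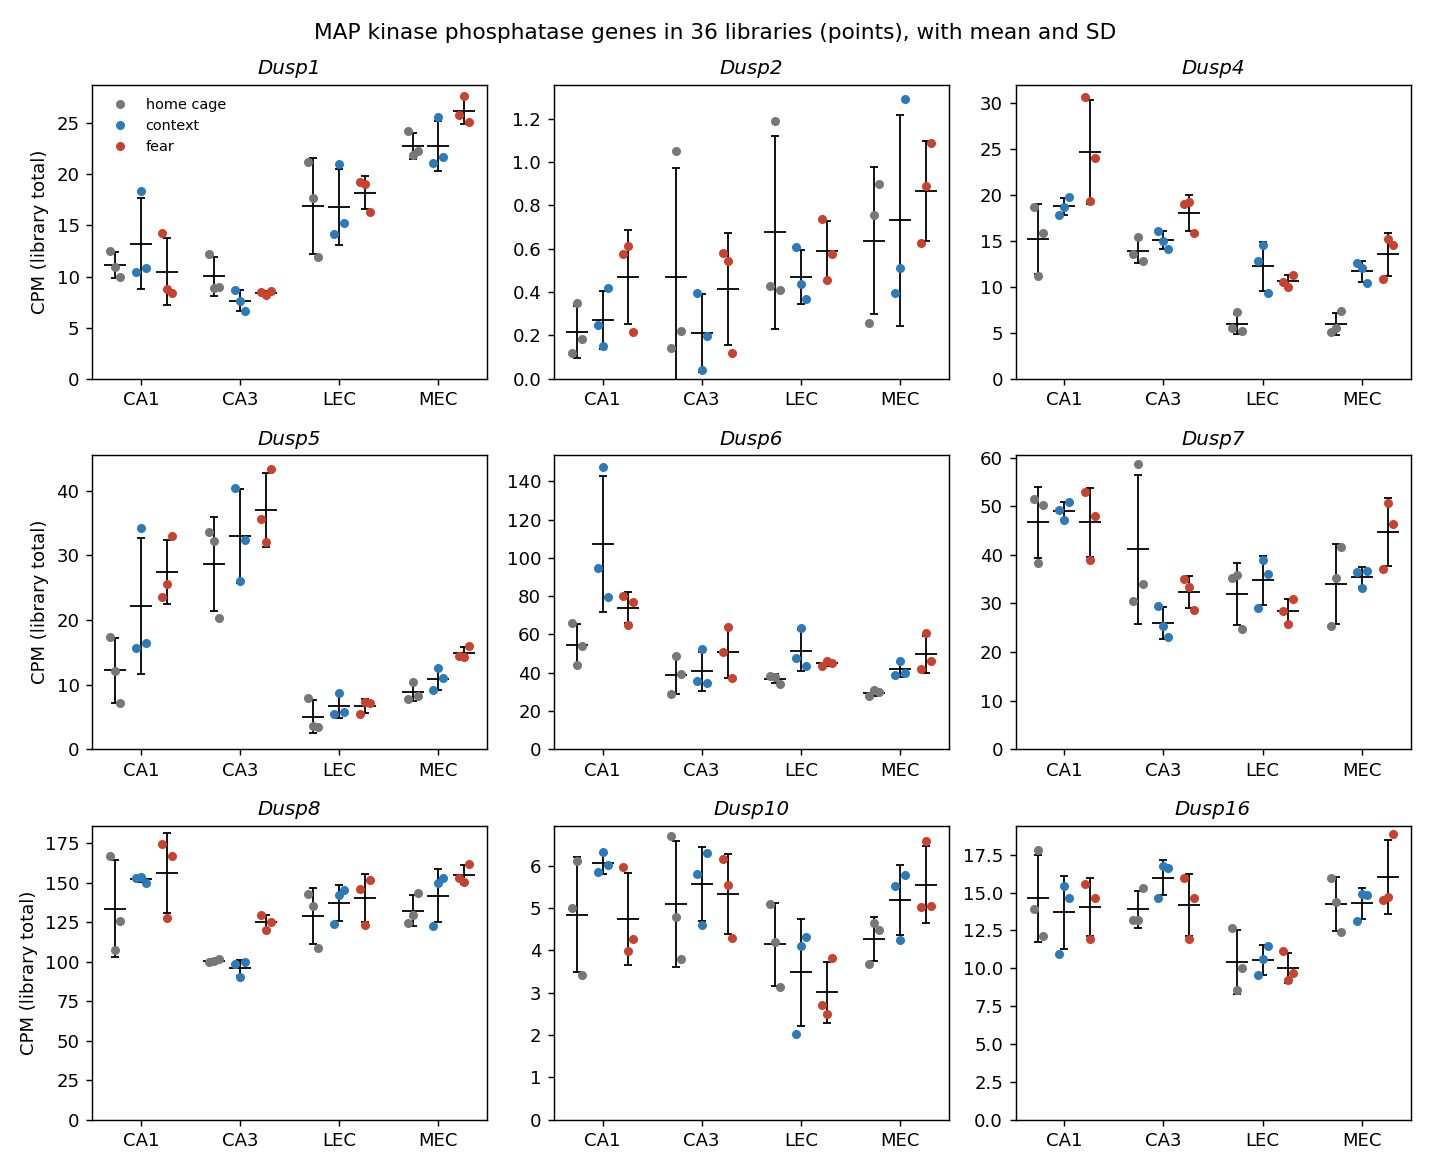
Each panel shows the CPM of 1 gene (vertical axis, from 0) in CA1, CA3, LEC and MEC, with 1 point per library, coloured by condition, and black bars for the mean and SD of the 3 libraries (bars are clipped at 0 for Dusp2 in CA3). In the Dusp4 panel the 3 fear points of each region lie above the 3 home cage points.

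Most of these genes differed in level between regions. In a single edgeR quasi-likelihood fit of the 36 libraries, averaged over conditions, 33 of the 54 differences (9 genes in 6 pairs of regions) passed a Benjamini-Hochberg adjusted p of 0.05. Differences between regions were common among all genes: LEC against CA1 was called for 7 of the 9 genes and for 46.6% of the 17875 genes tested, MEC against CA1 for 6 and 43.6%, LEC against CA3 for 6 and 39.8%, MEC against CA3 for 5 and 38.4%, CA3 against CA1 for 5 and 31%, and MEC against LEC for 4 and 17.4%.

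Dusp1, which encodes the nuclear phosphatase MKP-1, was higher in the entorhinal cortex than in the hippocampus. It had 8.69 ± 1.52 CPM in CA3 (SD, n = 9 libraries), 11.6 ± 3.10 in CA1, 17.3 ± 3.18 in LEC and 23.9 ± 2.30 in MEC. Each of its 6 differences between regions was called, from the smallest, CA3 below CA1 (log2 difference -0.35 ± 0.12 SE, edgeR adjusted p = 0.0268), to the largest, MEC above CA3 (1.38 ± 0.12, adjusted p = 5.4e-11). The lowest MEC library, at 21.1 CPM, was above each CA1 and CA3 library. Its exons overlap 11 bases of Ergic1 on the other strand.

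Dusp5, a nuclear phosphatase that acts on ERK, was instead higher in the hippocampus than in the entorhinal cortex, though MEC exceeded LEC for both genes. Its levels were 32.9 ± 6.93 CPM in CA3, 20.6 ± 9.21 in CA1, 11.6 ± 2.93 in MEC and 6.12 ± 1.86 in LEC, and each of the 6 pairs differed. CA3 exceeded LEC by 2.49 ± 0.19 on the log2 scale (LEC against CA3 -2.49, edgeR adjusted p = 2.5e-12), the widest difference between regions in the set, and MEC exceeded LEC by 0.87 ± 0.18 (adjusted p = 9.58e-04). The lowest CA3 library, 20.3 CPM, was above the highest of LEC, 8.77 CPM, and of MEC, 15.9 CPM. An antisense gene, AC137853.2, covers 547 bases of Dusp5 exons, and since the strand setting of the counting is not given in the sources used here, reads of the pair may have been mixed.

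Dusp4, which encodes the nuclear phosphatase MKP-2, was higher in the hippocampus (19.6 ± 5.38 CPM in CA1 and 15.7 ± 2.24 in CA3) than in the entorhinal cortex (10.4 ± 3.70 in MEC and 9.59 ± 3.17 in LEC). The 4 differences between hippocampal and entorhinal regions were called, the largest being LEC below CA1 (-1.06 ± 0.11, edgeR adjusted p = 1.7e-09). CA3 and CA1 differed by -0.24 ± 0.11 (adjusted p = 0.0966) and MEC and LEC by 0.07 ± 0.11 (adjusted p = 0.72), which did not pass. Dusp2, the remaining nuclear member, ranged from 0.0407 to 1.29 CPM, and MEC exceeded CA1 (log2 difference 1.30 ± 0.41, adjusted p = 0.0111) and CA3 (1.04 ± 0.41, adjusted p = 0.0454).

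Both ERK-selective cytoplasmic genes were highest in CA1. Dusp6, which encodes MKP-3, had 78.6 ± 29.9 CPM in CA1 against 44.4 ± 8.36 in LEC, 43.4 ± 11.1 in CA3 and 40.2 ± 10.3 in MEC. CA1 exceeded the other 3 regions (log2 differences of CA3, LEC and MEC from CA1 of -0.76, -0.78 and -0.97, each SE 0.12, edgeR adjusted p at most 1.02e-05), and no pair among the other 3 regions passed. Dusp7 had 47.5 ± 5.29 CPM in CA1, 38.1 ± 7.43 in MEC, 33.2 ± 10.4 in CA3 and 31.7 ± 5.09 in LEC, again with CA1 above each other region and no called difference among those 3.

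Among the genes for the JNK and p38 phosphatases, CA3 had the lowest Dusp8 and LEC the lowest Dusp10 and Dusp16. Dusp8 was at 107 ± 13.9 CPM in CA3 and 135 ± 14.0 to 147 ± 22.4 CPM in the other regions (CA3 against CA1 -0.40 ± 0.08, edgeR adjusted p = 2.69e-04). Dusp10 was at 3.54 ± 1.00 CPM in LEC and 5.00 ± 0.87 to 5.33 ± 1.00 elsewhere, and Dusp16 at 10.3 ± 1.29 CPM in LEC and 14.1 ± 2.15 to 14.9 ± 1.83 elsewhere. For each of these 3 genes the region with the low level differed from the other 3, and no other pair was called. When the same fit compared the home cage groups alone, 1 to 4 of the 9 genes were called in 5 of the pairs. The shares of all genes for those pairs are not given here. Between MEC and LEC 0 of the 9 were called, against 650 of all 17875 genes. The 4 calls there, of Dusp1, Dusp5, Dusp10 and Dusp16, were thus not kept. Of the 33 calls between regions, 17 no longer passed and 1 turned its sign.

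**Figure D2:**
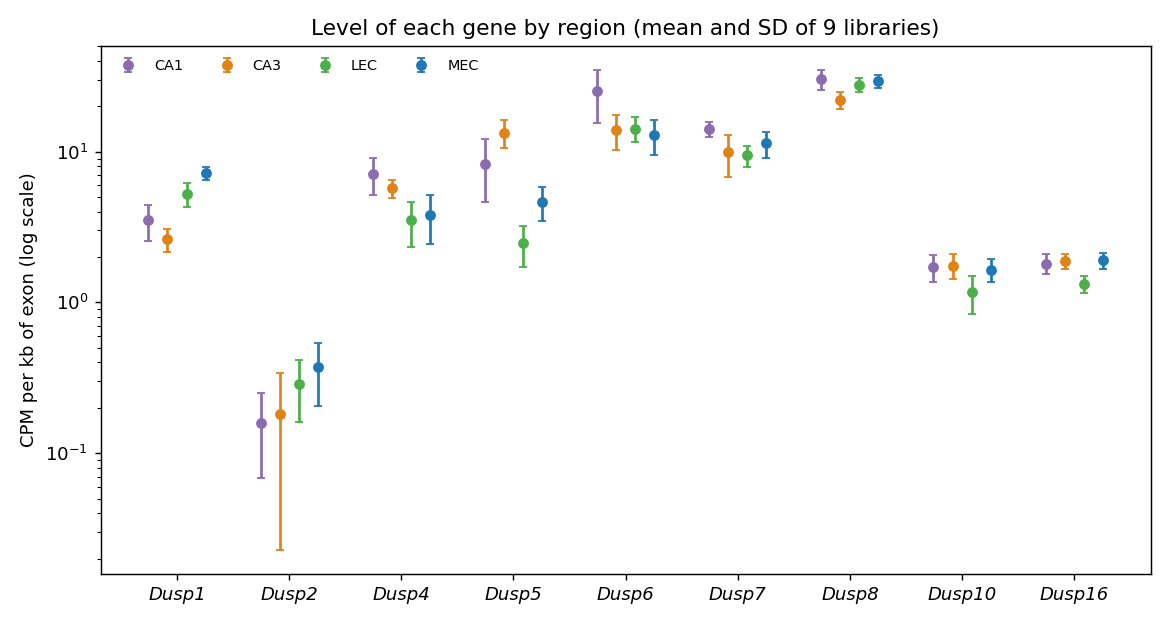
The vertical axis gives CPM per kilobase of exon on a log scale, the horizontal axis the 9 genes; points are the mean of the 9 libraries of a region, coloured by region, and bars the SD. Dusp8 lies highest, between 22.0 and 30.3 CPM per kb, and Dusp2 lowest, between 0.159 and 0.372.

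Divided by exon length, so that genes can be set against each other, Dusp8 had the highest mean level in each region (22.0 to 30.3 CPM per kb). Dusp6 came next, with 25.1 CPM per kb in CA1, 14.2 in LEC, 13.9 in CA3 and 12.8 in MEC, and the means of Dusp5 and Dusp6 in CA3, at 13.3 ± 2.80 and 13.9 ± 3.55, lay within each other's SD. Dusp7 stood at 9.43 to 14.1 CPM per kb. Dusp1, Dusp4 and Dusp5 changed places between regions: in MEC the means were 7.23, 3.79 and 4.67 CPM per kb, and in CA3 they were 2.62, 5.72 and 13.3. Dusp10 and Dusp16 were low, at 1.16 to 1.75 and 1.33 to 1.91 CPM per kb, and Dusp2 was at 0.159 to 0.372.

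The study's conditions asked how exposure to a context, with or without a shock, moved expression in each region. In MEC, 3 of the 9 genes were higher in fear than in home cage libraries: Dusp4, Dusp5 and Dusp6, by 2.30-, 1.74- and 1.73-fold. Higher calls made up 5.68% of the 16314 genes tested there (9.56% in either direction). Dusp4 was also higher in context, by 1.98-fold, in a comparison in which 0.497% of genes were called higher (0.57% either way). The other 6 genes did not pass in either comparison.

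Dusp4 read 5.10, 5.51 and 7.34 CPM in the 3 MEC home cage libraries, 12.6, 12 and 10.4 in context and 10.8, 15.2 and 14.6 in fear. Both exposed groups lay wholly above home cage, as 12% of all genes did in fear and 7.91% in context, and they overlapped each other. The log2 change was 1.20 ± 0.18 in fear (edgeR adjusted p = 0.00189) and 0.99 ± 0.18 in context (adjusted p = 0.0309). Leaving out any 1 of the 9 libraries kept the fear call (1.11 to 1.40), while the context call was lost without context 1, 2 or 3, fear 3, or home cage 1 or 2 (adjusted p up to 0.123, change 0.90 to 1.18).

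Dusp5 read 7.80, 10.4 and 8.31 CPM in MEC home cage, 9.15, 12.5 and 11 in context and 14.5, 14.3 and 15.9 in fear. The fear libraries lay above the 6 others, and context overlapped home cage. Of all genes, 12% had fear wholly above home cage and 11.9% had it wholly above context. Fear exceeded home cage by 0.80 ± 0.15 on the log2 scale (edgeR adjusted p = 0.00844, and 0.0503 without fear 3). Context exceeded home cage by 0.34 ± 0.15 (adjusted p = 0.307), and fear exceeded context by 0.46 ± 0.15 (adjusted p = 0.312), neither of which passed.

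Dusp6 read 27.6, 30.7 and 29.9 CPM in MEC home cage, 38.9, 46.3 and 40.0 in context and 42.0, 60.6 and 46.1 in fear. Home cage lay below both exposed groups, as it did for 12% of all genes in fear and 7.91% in context, and the exposed groups overlapped. Fear exceeded home cage by 0.79 ± 0.13 (edgeR adjusted p = 0.00393), a call kept without any 1 library. The context difference of 0.54 ± 0.13 had an adjusted p of 0.0727. With the replicate number as a block over all MEC libraries, it was 0.54 ± 0.10 and passed (edgeR adjusted p = 0.00971). The labels do not state that same-numbered libraries are paired. Such libraries deviated together for context and home cage in MEC (correlations of 0.60, 0.33 and 0.76). For fear and home cage they did not in each pair (0.11, -0.23 and 0.27), so the call depends on an assumed pairing.

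The remaining genes did not pass in MEC. Dusp8 read 124, 129 and 143 CPM in home cage and 153, 151 and 162 in fear (log2 difference 0.27 ± 0.10, edgeR adjusted p = 0.0924), without overlap. Dusp1 (0.24 ± 0.12, adjusted p = 0.189) and Dusp10 (0.42 ± 0.20, adjusted p = 0.178) also had every fear library above every home cage library. In all, 6 of the 9 genes were higher without overlap, against 12% of genes. Dusp7 overlapped, at 25.3, 35.2 and 41.6 CPM in home cage and 37.1, 50.7 and 46.3 in fear (0.43 ± 0.16, adjusted p = 0.0907).

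Marker genes of several cell types moved with condition in MEC too. Of all genes tested there, 5.68% were called higher in fear than in home cage and 3.88% lower. The 9 oligodendrocyte markers summed to 1714 to 2474 CPM in home cage, 2478 to 2878 in context and 2538 to 3524 in fear, and 6 of 9 were called higher in fear. The 8 endothelial markers summed to 75.2 to 87.1 CPM in home cage, 78.2 to 97.2 in context and 96.4 to 140 in fear, with 3 of 8 called higher in fear; no marker of these lists was at 0 in a MEC library. Interneuron markers summed to 637 to 708 CPM in home cage, 732 to 834 in context and 811 to 871 in fear (2 of 7 called higher in fear), and CA3 pyramidal markers to 119 to 133, 140 to 158 and 154 to 180 CPM (2 of 6 tested called higher; Iyd at 0 in at least 1 MEC library). Meningeal and mural markers summed to 268 to 304 CPM in home cage, 203 to 230 in context and 179 to 243 in fear (1 of 8 called lower). The 13 mitochondrially encoded genes summed to 52080 to 82520 CPM in home cage, 39770 to 52360 in context and 43590 to 51160 in fear, with 0 of 13 called. The part of these last 4 lists in the changes of the phosphatase genes was not tested. With the oligodendrocyte markers as a covariate the fear changes were 1.23 ± 0.39 for Dusp4, 0.97 ± 0.31 for Dusp5 and 0.67 ± 0.27 for Dusp6, and none passed (edgeR adjusted p = 0.147, 0.149 and 0.23). With the endothelial markers they were 1.00 ± 0.29, 0.65 ± 0.27 and 0.94 ± 0.22 (adjusted p = 0.348, 0.651 and 0.2). The context change of Dusp4 was 1.01 ± 0.31 with the oligodendrocyte covariate (edgeR adjusted p = 0.153). Both marker sums were higher in fear than in home cage without overlap. The SEs of the fear changes without a covariate were 0.18, 0.15 and 0.13. The parts of these markers and of condition cannot be told apart in these fits.

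**Figure D3:**
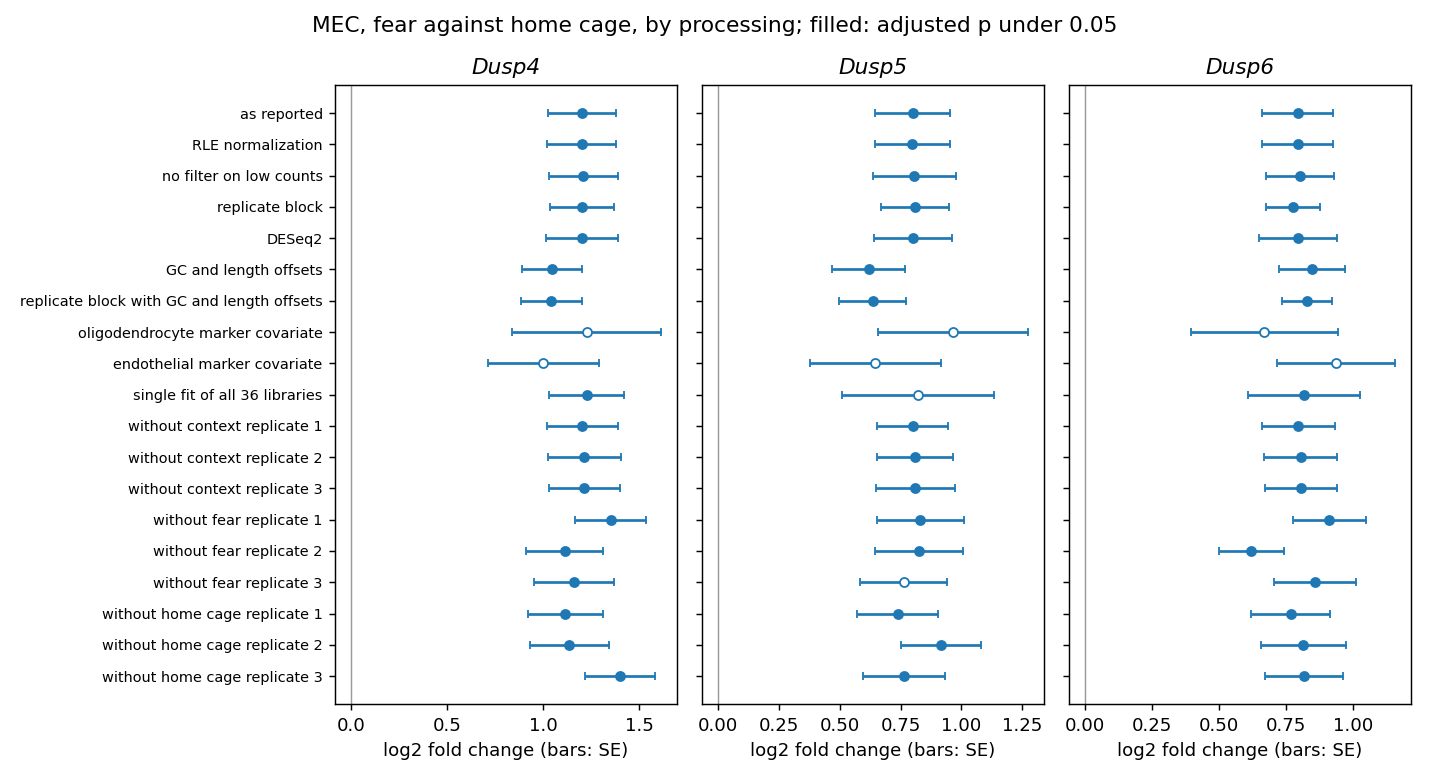
Log2 fold changes of fear against home cage in MEC (horizontal axis, bars SE) for Dusp4, Dusp5 and Dusp6 under each way of processing (vertical axis), with filled points where the adjusted p is under 0.05. The estimates stay above 0 in each setting shown, the 2 marker covariates widen the SE and leave the points open, and Dusp5 is also open in the single fit of 36 libraries and without fear 3.

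In CA1, CA3 and LEC none of the 9 genes passed against home cage. In CA1 0 of 16163 genes were called in fear or in context by edgeR (3553 and 3449 genes had an unadjusted p under 0.05, and DESeq2 called 1401 and 1061). In LEC 0 of 16402 were called in either (1242 and 403 unadjusted; DESeq2 called 39 and 3), and in CA3 fear 0.00619%. In CA3 context 13.9% of genes were called, and 0 of 9 is near that share.

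Dusp4 was the one gene of the 9 with every fear library above every home cage library in each of the 4 regions. In CA1 it read 18.7, 11.2 and 15.8 CPM in home cage, 17.9, 18.7 and 19.7 in context and 30.7, 19.3 and 24.0 in fear. In CA3 it read 13.6, 15.4 and 12.8 in home cage, 16.1, 15.0 and 14.1 in context and 19.0, 19.3 and 15.8 in fear. In LEC it read 5.55, 7.22 and 5.18 in home cage, 12.8, 14.6 and 9.31 in context and 10.6, 9.92 and 11.3 in fear. Among all genes tested, the share with such separation in a single region was 8.37% for CA1, 9.3% for CA3, 6.85% for LEC and 12% for MEC. The share of all genes separated in each of the 4 regions at once was not computed. Context libraries separated from home cage in LEC and MEC, as 4.25% and 7.91% of genes did upward, and overlapped it in CA1 and CA3. Some marker sums also separated, and others overlapped. In CA1 interneuron markers summed to 398 to 506 CPM in home cage and 608 to 740 in fear. In CA3 they summed to 471 to 508 and 552 to 590.5. They overlapped in LEC, where neocortical and entorhinal layer markers summed to 616 to 726 CPM in home cage and 858 to 1044 in fear. The part of these lists in the Dusp4 changes was not tested.

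In fear, Dusp4 differed from home cage in CA1, CA3 and LEC by 0.76 ± 0.20, 0.47 ± 0.15 and 0.80 ± 0.21 on the log2 scale (edgeR adjusted p = 0.0762, 0.17 and 0.527). With the replicate block over all CA1 libraries, the CA1 change was 0.77 ± 0.17 and passed (edgeR adjusted p = 0.0372). Same-numbered libraries deviated together there for fear and home cage, but not for fear and context (correlations of -0.06, -0.19 and -0.31). The labels state no pairing, so that call depends on an assumed one. Without context 2 and home cage 2 the CA1 change was 0.58 ± 0.20 (edgeR adjusted p = 0.267). The LEC context change was 1.01 ± 0.21 (adjusted p = 1 by edgeR, 0.0381 by DESeq2).

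Dusp5 in CA1 read 17.3, 12.1 and 7.21 CPM in home cage, 15.7, 34.3 and 16.5 in context and 23.6, 25.6 and 33.0 in fear. Fear lay above home cage without overlap, as 8.37% of all genes did. The log2 change was 1.22 ± 0.38 (edgeR adjusted p = 0.112), and 1.20 ± 0.36 without context 2 and home cage 2 (adjusted p = 0.249). In CA3 it read 33.6, 32.2 and 20.3 in home cage, 40.5, 26.0 and 32.3 in context and 35.6, 32.1 and 43.5 in fear, with overlap. In LEC it read 8, 3.61 and 3.46, then 5.49, 8.77 and 5.71, then 5.48, 7.33 and 7.22, again with overlap.

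Dusp6 in CA1 read 65.8, 44.0 and 54.1 CPM in home cage, 94.5, 148 and 79.6 in context and 80.2, 65.0 and 76.7 in fear. Context lay wholly above home cage, as 9.71% of all genes did. The log2 change was 1.05 ± 0.23 (edgeR adjusted p = 0.104). It fell to 0.60 ± 0.17 (adjusted p = 0.55) without context 2, the library at 148 CPM, and home cage 2. CA1 pyramidal markers in these CA1 libraries summed to 570 to 1303 CPM in home cage, 1223 to 1620 in context and 700 to 1451 in fear; with them as a covariate the Dusp6 context change was 0.63 ± 0.24 (adjusted p = 0.734), and with the dentate granule markers it was 0.51 ± 0.20 (adjusted p = 0.568). In LEC context lay above home cage (47.6, 63.5 and 43.6 against 38.5, 37.8 and 34.3 CPM), as did fear (43.5, 46 and 45), with log2 changes of 0.47 ± 0.15 and 0.26 ± 0.15 (adjusted p = 1 and 0.733). Of all genes in LEC, 4.25% lay wholly above home cage in context and 6.85% in fear. In CA3 the 3 conditions of Dusp6 overlapped, at 28.7, 48.5 and 39.3, then 35.4, 52.5 and 34.4, then 50.9, 63.6 and 37.2 CPM.

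Dusp8 in CA3 was close to constant in home cage, at 99.5, 101 and 102 CPM, and read 98.7, 90.5 and 99.6 in context and 130, 120 and 125 in fear. Fear lay above both other groups without overlap, as 9.3% of all genes did against home cage and 13.5% against context. The log2 change was 0.41 ± 0.12 against home cage (edgeR adjusted p = 0.161) and 0.35 ± 0.12 against context (adjusted p = 0.155), and the first passed with DESeq2 (0.43 ± 0.13, adjusted p = 0.0315). Dusp7 in CA3 had 1 high home cage library, home cage 2, at 58.6 CPM against 30.6 and 34.1, and read 29.5, 25.4 and 23.0 in context (-0.53 ± 0.21, adjusted p = 0.0895). The difference was -0.21 ± 0.15 without home cage 2 (adjusted p = 0.424) and 0.21 ± 0.16 with offsets for GC content and transcript length (adjusted p = 0.446).

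**Figure D4:**
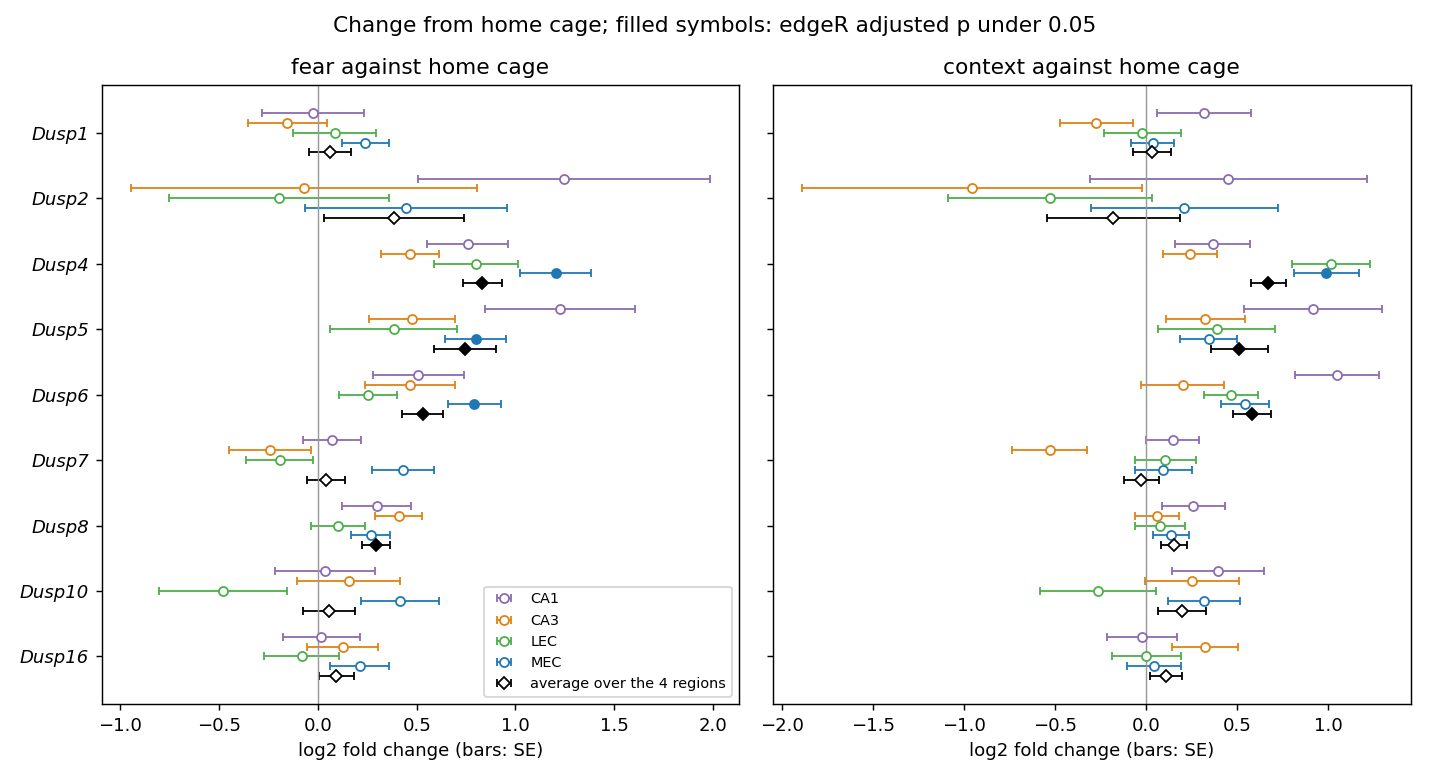
Log2 fold changes against home cage (horizontal axes; left fear, right context) for the 9 genes, as circles for each region and diamonds for the average over regions, with SE bars and filled symbols where the adjusted p is under 0.05. Dusp4, Dusp5, Dusp6 and Dusp8 lie above 0 in each region in both panels, whereas Dusp1, Dusp2, Dusp7, Dusp10 and Dusp16 have points on both sides.

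Averaged over the 4 regions, the genes split into those that rose and those that did not pass. Dusp4, Dusp5, Dusp6 and Dusp8 were higher in fear, 4 of 9 genes where 14.2% of the 17875 tested were called higher (24.1% either way). Dusp4, Dusp5 and Dusp6 were higher in context, 3 of 9 where 13.5% were (22.1% either way). The median change of the 9 genes was 0.29 in fear and 0.15 in context, against -0.003 and -0.027 for all genes tested. In the same averages 9.94% of all genes were lower in fear and 8.58% in context. Of the 13 mitochondrially encoded genes, 11 were lower in fear and 4 in context (median changes -0.44 and -0.29). So were 4 and 5 of 9 microglial markers and 3 and 3 of 7 astrocyte markers, and 1 microglial marker was higher in fear. Their part in the changes was not tested. Libraries of different regions may come from the same mice, which this fit does not model, so these p-values may be too small.

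For Dusp4 the average change was 0.83 ± 0.10 in fear (edgeR adjusted p = 1.89e-06, 1.78-fold) and 0.67 ± 0.10 in context (adjusted p = 5.39e-05, 1.59-fold). For Dusp5 it was 0.75 ± 0.16 (adjusted p = 8.19e-04) and 0.51 ± 0.16 (adjusted p = 0.018), and for Dusp6 0.53 ± 0.10 (adjusted p = 4.01e-04) and 0.58 ± 0.10 (adjusted p = 3.32e-04). Each of the 3 genes was above home cage in 4 of 4 regions in both comparisons. With context 2 and home cage 2 left out in CA1 and CA3, the context changes were 0.63 for Dusp4, 0.44 for Dusp6 (adjusted p = 0.00142 and 0.00562) and 0.42 for Dusp5, which no longer passed (adjusted p = 0.0946). The Dusp5 context call was also lost without the context 2, the home cage 2 or the home cage 3 libraries of all regions (0.34 to 0.75 over the 9 omissions).

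Dusp8 was higher in fear by a smaller step, 0.29 ± 0.07 (edgeR adjusted p = 0.00252, 1.23-fold), positive in 4 of 4 regions. That call was lost without fear 3 of all regions (adjusted p = 0.0637), and with offsets for GC content and transcript length the change was 0.12 ± 0.08 (adjusted p = 0.273). The context change of Dusp8 was 0.15 ± 0.07 (adjusted p = 0.116).

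The other 5 genes passed neither average. Dusp1, a textbook immediate early gene, had 0.06 ± 0.10 in fear and 0.03 ± 0.11 in context (edgeR adjusted p = 0.72 and 0.86). Its 3 fear libraries in CA3, at 8.52, 8.19 and 8.57 CPM, lay below the home cage libraries at 12.2, 8.90 and 8.94. Such separation downward was found for 19.4% of all genes there, and the Dusp1 change did not pass (-0.15 ± 0.20, edgeR adjusted p = 0.705). In MEC the Dusp1 fear libraries, at 25.8, 27.7 and 25.2, lay above those of home cage at 24.3, 21.9 and 22.2, as 12% of genes did. In CA1 it read 12.5, 10.9 and 9.95 in home cage and 14.3, 8.79 and 8.40 in fear, and in LEC 21.2, 17.7 and 11.9 and then 19.2, 19.1 and 16.3, with overlap in both. Dusp7 (0.04 ± 0.09 in fear), Dusp10 (0.06 ± 0.13), Dusp16 (0.09 ± 0.09) and Dusp2 (0.38 ± 0.35) did not pass either.

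Adding the shock to the context made no difference that passed for any of the 9 genes. Of the 36 comparisons of fear with context within regions, 24 had a positive sign, 4 had an unadjusted p under 0.05, and the smallest adjusted p was 0.155 (edgeR). Within regions 0 of all genes tested were called for fear against context in CA1, CA3, LEC or MEC (918, 3785, 207 and 2395 at an unadjusted p under 0.05), so the 0 calls there are not particular to these 9 genes. In the average over regions 3.37% of all genes were called and 0 of the 9. The averages were 0.16 ± 0.09 for Dusp4, 0.23 ± 0.15 for Dusp5, -0.05 ± 0.10 for Dusp6 and 0.14 ± 0.07 for Dusp8. Nor did the changes from home cage differ between regions by the test of interaction (edgeR adjusted p = 0.653 to 0.878 over the 9 genes in fear and 0.238 to 0.872 in context). That test called 0.0168% of all genes for fear and 0 for context, with 1452 and 3164 genes at an unadjusted p under 0.05. The calls in MEC alone are therefore not shown to be particular to MEC.

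**Figure D5:**
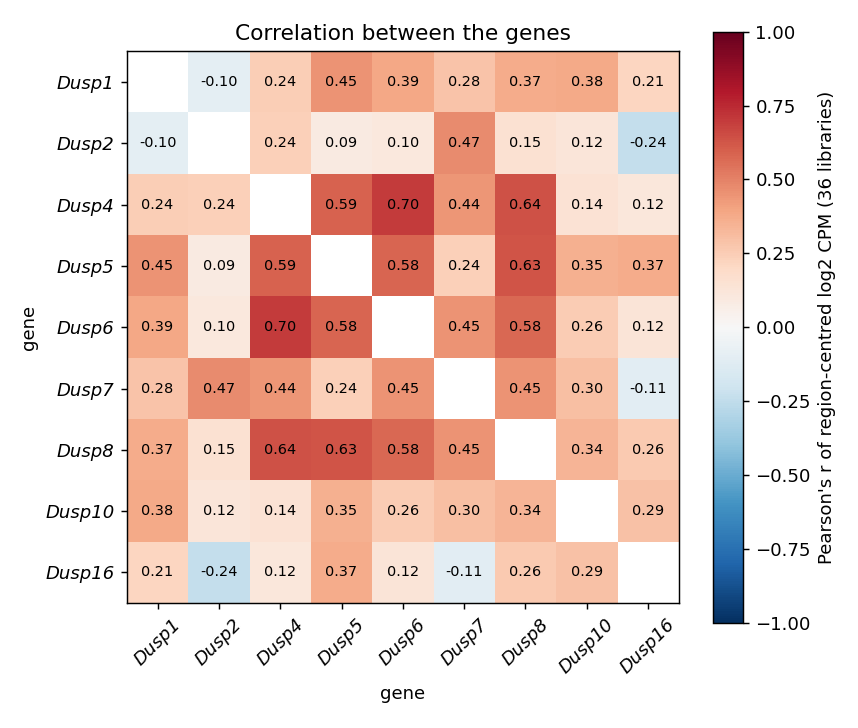
Pearson's r between each pair of the 9 genes (both axes list the genes; blue negative, red positive), from log2 CPM with each region's mean taken away, over 36 libraries. The 6 pairs among Dusp4, Dusp5, Dusp6 and Dusp8 run from 0.58 to 0.70 and each of the 30 other pairs is at or below 0.47.

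Across libraries, after each region's mean was removed, Dusp4, Dusp5, Dusp6 and Dusp8 varied together. These are the genes called higher in the fear average. Condition means were not removed, so changes shared with condition enter r. As a description over 36 libraries, which share conditions, dissection and depth, the 6 pairs among them had r of 0.58 to 0.70, the highest being Dusp4 with Dusp6. The other 30 pairs ran from -0.24 (Dusp2 with Dusp16) to 0.47 (Dusp2 with Dusp7). Dusp1 correlated at 0.24 with Dusp4, 0.45 with Dusp5 and 0.39 with Dusp6.

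Among all genes, those most like Dusp4 by this measure were Igsf11, an adhesion molecule of the immunoglobulin family (r = 0.88), and the immediate early genes Fosb (0.83) and Egr1 (0.82). Those most like Dusp6 were the transcription factor genes Bhlhe40 (0.87), Egr1 (0.87) and Egr2 (0.85). Dusp5 had Trim35 (0.81), Zfp251 (0.79) and Camk1g, a calcium and calmodulin dependent kinase gene (0.78).

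The rest of the pathway is given by lists. Of 15 genes for transcription factors that respond to ERK, 8 were higher and 1 was lower in MEC in fear. Of all genes there, 5.68% were higher and 3.88% lower. Among the higher factors were Egr1 (1.39 ± 0.12, edgeR adjusted p = 6.13e-05) and Fosb (1.75 ± 0.20, adjusted p = 3.49e-04). In context 4 of the 15 were higher, where 0.497% of all genes were, again with Egr1 (1.16 ± 0.12) and Fosb (1.37 ± 0.20). Averaged over regions 8 of the 15 were higher in each comparison, with a median change of 0.51 in fear and 0.40 in context. Of all genes 14.2% were higher in the fear average and 13.5% in the context average. Of the 6 Sprouty and Spred inhibitors tested, which restrain the path from receptor tyrosine kinases to ERK, 3 were higher in MEC in fear, among them Spred2 (0.52 ± 0.10, adjusted p = 0.00772) and Spry4 (0.48 ± 0.13, adjusted p = 0.0317).

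Of the 10 tested genes for other phosphatases of MAP kinases, 3 were higher in MEC in fear, among them Dusp14 (0.83 ± 0.14, edgeR adjusted p = 0.00391) and Dusp3 (0.66 ± 0.11, adjusted p = 0.00302). In the same comparison 0 of 10 MAP kinases and 1 of 22 upstream genes were called, near the 9.56% of all genes. The upstream gene was Rasgrf1 (0.36 ± 0.11, adjusted p = 0.0474), a calcium-responsive activator of Ras. In CA3 in context, where none of the 9 phosphatases was called, 2 of 9 MAP kinases were lower. They were Mapk3, which encodes ERK1 (-0.60 ± 0.14, edgeR adjusted p = 0.045), and Mapk7 (-0.98 ± 0.28, adjusted p = 0.046). There 7 of 22 upstream genes were higher and 1 lower. The Ras activators Sos2 (0.70 ± 0.14) and Sos1 (0.74 ± 0.19) were among the higher (edgeR adjusted p = 0.045 for both). Of the 15 ERK-responsive factors 3 were higher and 1 lower there. Fosl2 (1.15 ± 0.22) and Etv1 (0.80 ± 0.19) were among the higher (edgeR adjusted p = 0.045 for both). Of all genes 5.77% were higher and 8.13% lower in that comparison. The smallest edgeR adjusted p of any gene in it was 0.045, so these calls lie close to the threshold. Changes of the lists without context 2 and home cage 2 are not given here. In CA1 and LEC none of the genes in these 5 lists was called against home cage. There 0 of 16163 and 0 of 16402 genes were called, so this is not particular to the lists. Averaged over regions in fear, 4 of 10 MAP kinases and 9 of 22 upstream genes were higher and none lower, with median changes of 0.06 and 0.20, where 14.2% of all genes were higher. In context 4 of the MAP kinases were higher and 3 lower (median 0.16), and 9 of the upstream genes were higher and 1 lower (median 0.16), where 13.5% of all genes were higher and 8.58% lower.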

How the data were processed

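The authors deposited whole-number read counts per gene for 36 libraries from the Illumina TruSeq Stranded mRNA kit. Reads were processed with Trimmomatic 0.33, STAR 2.7.10b and HTSeq 2.0.1 on mm10, per the submitters' processing notes; the annotation release and strand option are not given in the sources used for this work. Identifiers were matched to GENCODE M21, and 35449 of 37315 (95%) had a symbol. Within a region, genes with low counts in its 9 libraries were removed by filterByExpr, TMM factors were computed, and edgeR's quasi-likelihood test was run with robust dispersions on 6 residual degrees of freedom. Regions, averages over regions and interactions came from a fit of 36 libraries (24 degrees of freedom, 17875 genes). P-values were adjusted by Benjamini-Hochberg over all genes tested, and a gene was called under 0.05. CPM uses library totals, and CPM per kb the union of GENCODE exons. The 9 genes, the pathway lists and the rules were chosen with earlier results of these data known. The rule named each of the 9 genes, up to 2 called genes of smallest p per list and comparison within a region, and the 3 genes of highest r with each gene called within a region.

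Same-numbered libraries deviated together, with every correlation over 0.1, in 2 of 12 comparisons within regions over 10149 genes: fear and home cage in CA1 (0.30, 0.40 and 0.23) and context and home cage in MEC (0.60, 0.33 and 0.76). The numbers were read as pairing there only. Between regions, every correlation was also over 0.1 for each pair of CA1, CA3 and LEC in fear. The same held for MEC and LEC in context, and for no other pair of regions within a condition. Whether the regions share mice was not tested. The labels do not state pairing, and the block was fitted over all libraries of a region, with the remaining condition included. The alternatives tried were RLE in place of TMM, no filter, a replicate block, DESeq2, offsets for GC content and transcript length, alone and with the block, marker covariates, a single fit of 36 libraries, home cage libraries only for regions, CPM by TMM library size, and leaving out libraries. The endothelial and CA1 pyramidal covariates were added after seeing the data. The procedure was tested on simulated data. R 4.3.3 ran edgeR 4.0.16, DESeq2 1.42.0 and limma 3.58.1. Python 3.11.15 ran pandas 2.3.3, numpy 2.4.6 and matplotlib 3.10.9.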

Additional observations from a re-analysis of the deposited data

How the results depend on the processing

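Counts of the 9 genes called against home cage moved as follows. The number of all genes called moves with the setting too, as given above for DESeq2 in CA1 and LEC. Shares of all genes are not given for each setting here, so these counts are not a result about the 9 genes alone. In CA1 fear the 0 became 1 without the filter or with the replicate block and 2 with DESeq2 or the single fit, and in CA1 context it became 1 with DESeq2 or the single fit. In CA3 fear the 0 became 2 with DESeq2 and 1 with the single fit; in CA3 context it became 2 with GC and length offsets, with or without the block, and 1 with the single fit; in LEC context it became 1 with DESeq2. In MEC fear the 3 became 5 with the replicate block and 0 with either marker covariate. In MEC context the 1 became 2 with no filter, the block, DESeq2 or GC and length offsets with or without the block, and 0 with either covariate or the single fit. With home cage libraries only, the regions gave 1 for CA3 against CA1, 4 for LEC against CA1, 3 for MEC against CA1, 3 for MEC against CA3 and 0 for MEC against LEC, and Dusp10 in MEC against LEC turned to -0.015 (edgeR adjusted p = 0.993). Causes were not tested. The home cage comparisons rest on fewer libraries per region.

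Leaving out 1 replicate gave 2 to 5 in MEC fear, 0 to 1 in MEC context, 0 to 2 in CA1 fear, 0 to 1 in CA1 context, 3 to 4 for the fear average and 2 to 4 for the context average. It gave 4 to 5 for CA3 against CA1, 5 to 6 for MEC against CA1, 4 to 5 for MEC against CA3 and 3 to 5 for MEC against LEC. The replicate block, which assumes a pairing that the labels do not state, changed 5 of 207 single calls. These were the named Dusp4 and Dusp6 calls and others where same-numbered libraries did not deviate together. Dusp7 and Dusp8 in MEC fear now passed (edgeR adjusted p = 0.0221 and 0.0259). Dusp2 in MEC against CA3 no longer passed (edgeR adjusted p = 0.0538). Counts were lowest for Dusp2, at 1 to 62 per library; how far depth limits its tests was not tested.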
